A study of Elodea nuttallii and Chlamydomonas reinhardtii with 18 samples.

Results

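Transcripts annotated to auxin transport and signalling were followed in shoots of Elodea nuttallii, a submerged freshwater waterweed, across 3 sites of the River Olt. They numbered 87 transcripts from 54 loci of an assembled transcriptome, of 58110 transcripts with values. The transcripts were taken from the authors' 3 deposited tables of differences between sites, which list 11717 transcripts, 5081 of them with annotation text. A transcript was included when that text held the word auxin or indole-3-acetic, in any case. In 32 of the 87, over 22 loci, the gene description itself named auxin. In the other 55, over 34 loci, only the functional terms behind the description did so, most often as a response to auxin (26 transcripts), as basipetal auxin transport (17) or as auxin efflux (12).

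The choice used measured values. The authors' tables hold transcripts at least 2-fold apart between sites at a false discovery rate under 5%, so every one of the 87 had to differ in at least 1 of the 3 contrasts. The levels and differences given here are therefore a description, with no test of the transcripts themselves. Just inside the authors' thresholds lay Locus_1704_Transcript_1_1 with a log2 fold of -1.002 in the authors' deposited table for Babeni site 2 against Valcea, and Locus_8105_Transcript_6_7 with a false discovery rate of 0.0483 in the same authors' deposited table. Unlisted transcripts have no annotation text in the files used here, so only unlisted transcripts of the same loci can be placed just outside. The nearest of these in the most abundant efflux carrier locus, Locus_3021_Transcript_8_14, differed by -0.66 at Babeni site 1 and -0.86 at Babeni site 2 on the log2 scale.

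The plants were shoot tops of 10 cm with the apex, gathered at a clean site and then held in the river for 2 h. The 3 sites were Valcea, Babeni site 1 and Babeni site 2, each a group of 3 libraries, with no genotype, treatment agent or plant age given beyond the site. Mercury and its toxicity in the field are the subject that the series title names, but its concentration at the sites was not used here. The labels of the alga exposed alongside call Valcea the control, and the Elodea contrasts are set against Valcea in the same way. The labels do not say that replicate libraries are separate plants, so spreads and standard errors measure the variation between libraries, which may be technical.

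Auxin, chiefly indole-3-acetic acid, is the hormone that sets growth direction, apical dominance and organ formation in plant shoots. In Arabidopsis thaliana, AUX1/LAX carriers bring it into cells, PIN carriers and several ABCB transporters export it, and the position of PIN proteins in the membrane sets the direction of flow. TIR1/AFB F-box receptors bind auxin together with Aux/IAA repressors, which are then degraded, releasing auxin response factors (ARFs) that act on target genes such as those of the SAUR, GH3 and Aux/IAA families.

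Levels are the authors' counts scaled to library size (CPM), rescaled again for each library by a factor that the files do not give. Recovered depth was 2875062 to 4875382 reads at Valcea, 4578385 to 4985937 at Babeni site 1 and 6932366 to 7824727 at Babeni site 2. A count of 3 reads was worth 0.564 to 1.19 CPM at Valcea and 0.351 to 0.433 CPM at Babeni site 2, and these limits cover counting error only. Valcea replicate 3 stood apart from the other Valcea libraries in chi-square per transcript (7.18 and 7.66, against 1.72 between the other pair), and its log2 levels correlated with theirs across transcripts at 0.918 and 0.935, against 0.934 between the other pair. Counts with that library left out are given beside the results. Shoot markers were present in all libraries. The summed level of 32 photosystem transcripts was 8383 to 11488 CPM at Valcea, 3842 to 4063 at Babeni site 1 and 2069.7 to 2845 at Babeni site 2, and that of 29 chlorophyll a-b binding transcripts was 1451 to 1994, 2660.2 to 3030.1 and 1298 to 1439 CPM. For 11 transcripts of Rubisco and its activase the sums were 1038 to 1393, 604 to 689 and 408 to 491 CPM in the same order of sites. These markers carry descriptions only because the authors listed them as well.

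Most of the transcripts that name auxin in their description were less abundant at the Babeni sites than at Valcea. Their summed level was 519 ± 31.9 CPM at Valcea, against 277 ± 7.73 at Babeni site 1 and 349 ± 19.7 at site 2 (SD, n = 3 each). At Babeni site 1, 25 of the 32 lay below all Valcea libraries, 3 lay above and 4 overlapped. Over all 56752 transcripts that passed the filter on low values, 15.6% lay below and 15.4% above in that contrast. At Babeni site 2, 23 of the 32 lay below, 6 above and 3 overlapped, against 17.5% and 18.4% of all transcripts. Both Babeni sites lay below Valcea for 22 of the 32 (10.5% of all transcripts) and above it for 3 (9.26%). Most of all transcripts did not pass the authors' thresholds. Of the other 4600 described transcripts in the authors' tables, 1583 lay below Valcea at both Babeni sites and 1255 above. At Babeni site 1, 1816 of those 4600 lay below and 1610 above, and at site 2, 2096 and 1805 did. The 2 contrasts share the Valcea libraries, and the choice of transcripts used both, so nothing is read from these counts beyond the description.

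The 55 transcripts with auxin only in their terms were mixed: at Babeni site 1, 21 lay above Valcea and 22 below (15.4% and 15.6% of all transcripts), and at Babeni site 2, 26 lay above and another 26 below (18.4% and 17.5%). Over all 87, the median log2 difference was -0.75 at either Babeni site, against 0.03 and 0.05 over all transcripts tested and -0.17 and -0.40 over the other 4600 described transcripts of the authors' tables. In the authors' deposited tables, 12 were listed as higher and 35 as lower at Babeni site 1 (4.64% and 6.05% of all transcripts), 29 and 38 at Babeni site 2 (7.06% and 7.91%), and 5 and 5 at Babeni site 2 against site 1 (2.35% and 2.54%). Of the 87, 85 passed the filter. In limma's fit over all transcripts, with a call at an adjusted p under 0.05 and at least 2-fold, 9 were called higher and 32 lower at Babeni site 1 (4.17% and 4.90% of all), and 21 higher and 31 lower at Babeni site 2 (6.00% and 6.09%). Without Valcea replicate 3 these counts were 13 and 28 at Babeni site 1 (6.05% and 5.87% of all) and 22 and 31 at Babeni site 2 (7.78% and 7.02%). In bulk shoots, fewer cells of a type and less RNA per cell cannot be told apart.

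**Figure D1:**
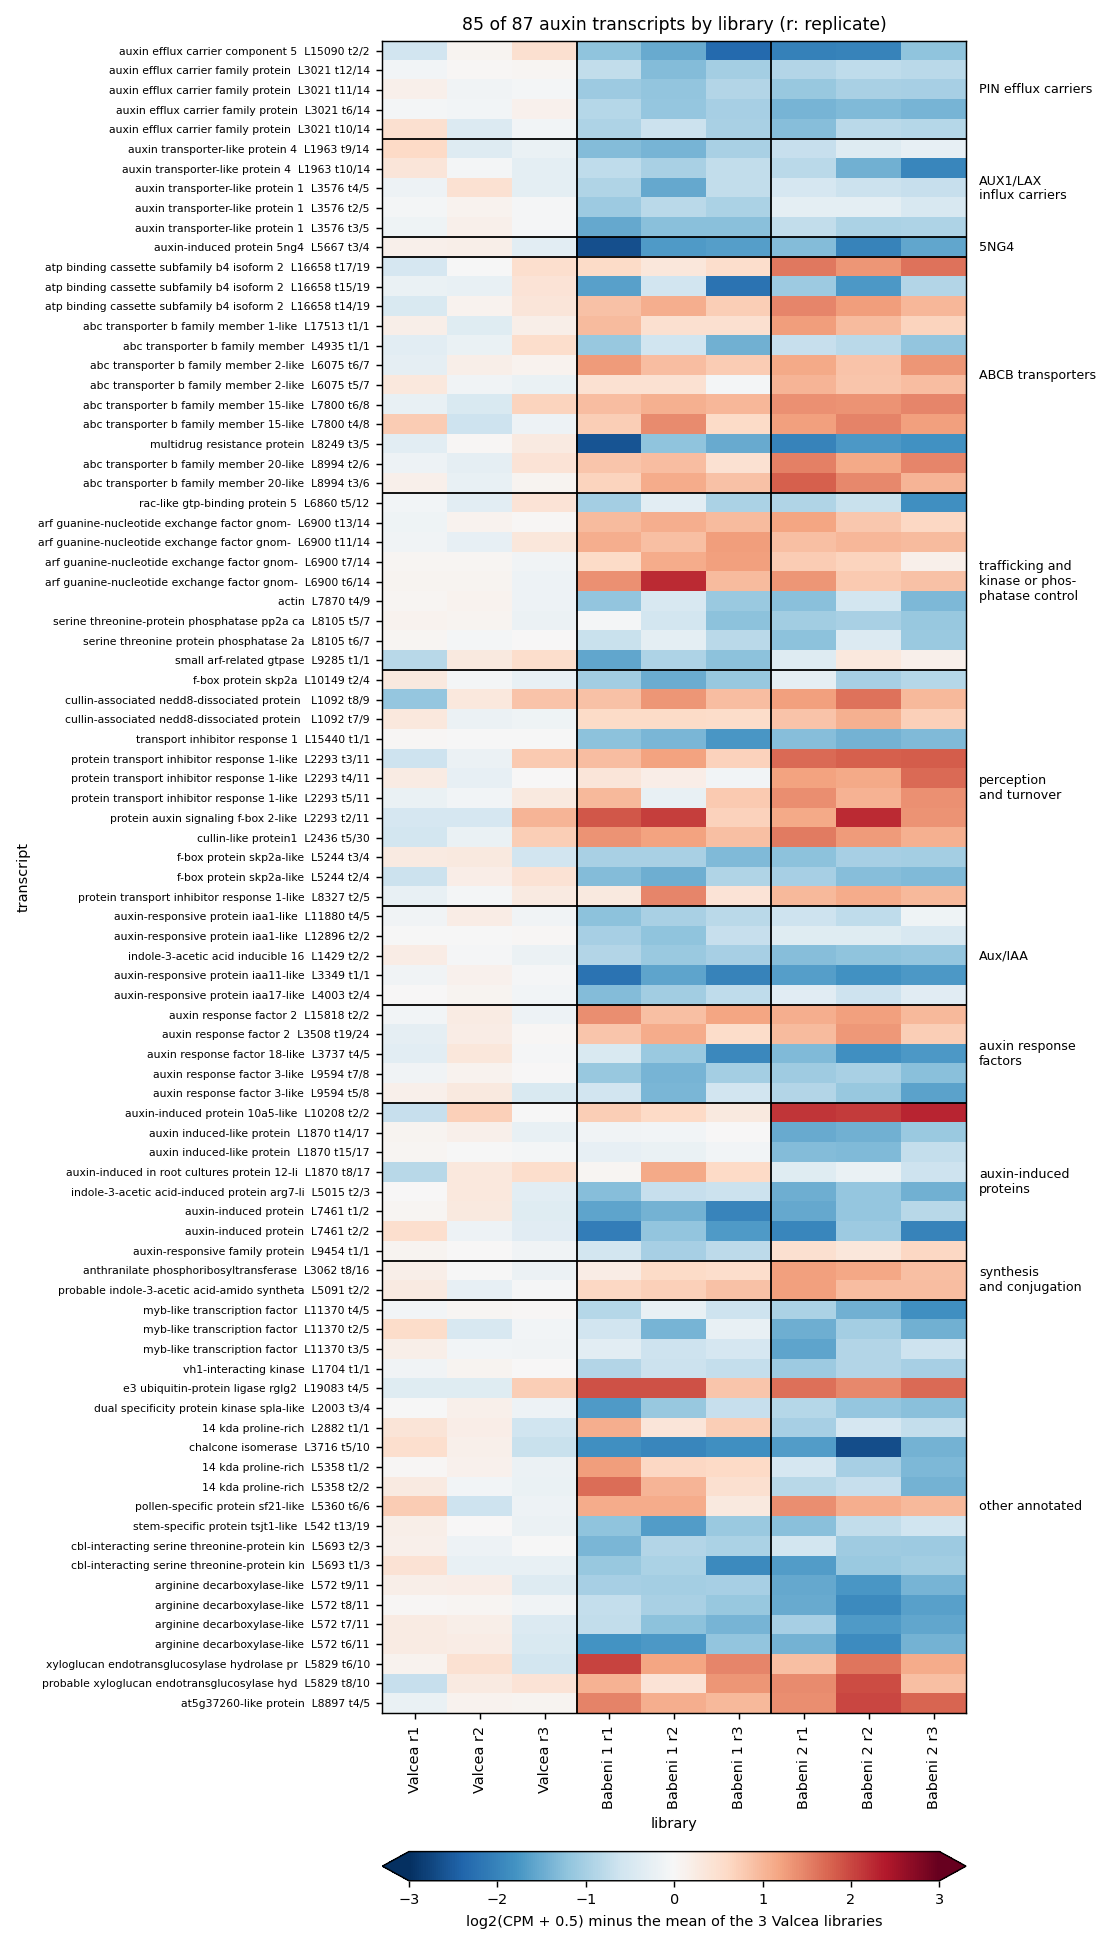
Each row is a transcript, with 85 of the 87 drawn and 2 of the PIN class not drawn, and each column a library, and colour gives log2(CPM + 0.5) minus the mean of the 3 Valcea libraries, blue for lower and red for higher. The 5 PIN rows drawn and all AUX1/LAX and Aux/IAA rows have site means below Valcea at both Babeni sites, while most ABCB rows are red.

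Transcripts of the PIN class, set by descriptions such as auxin efflux carrier, had lower means at both Babeni sites in 6 of 7. These descriptions do not name the membrane in which the carriers lie. Locus_3021, described only as an auxin efflux carrier family protein, carried most of their level. Locus_3021_Transcript_12_14 was at 29.8, 32.4 and 33.3 CPM at Valcea, 18.8, 12.6 and 15.5 at Babeni site 1, and 17.2, 18.5 and 18.0 at Babeni site 2. Locus_3021_Transcript_11_14 was at 25.4, 21.3 and 22.01 CPM at Valcea, 10.5, 9.73 and 12.3 at Babeni site 1, and 10.2, 11.4 and 11.1 at Babeni site 2. In Locus_3021_Transcript_6_14 the levels were 14.7, 14.4 and 16.6 CPM at Valcea, 8.23, 6.49 and 7.31 at Babeni site 1, and 5.498, 5.76 and 5.49 at Babeni site 2. All 3 were lower in every Babeni library than in any Valcea library, with log2 differences of -1.02 ± 0.16, -1.05 ± 0.16 and -1.01 ± 0.18 (SE) at Babeni site 1 and -0.81 ± 0.16, -1.04 ± 0.16 and -1.37 ± 0.18 at Babeni site 2. The same locus held Locus_3021_Transcript_10_14, whose libraries spanned 2.13 to 4.37 CPM at Valcea against 1.29 to 1.72 and 0.936 to 1.502 at the Babeni sites.

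Of the remaining PIN transcripts, all under 5 CPM, the one described as component 5 had the largest difference of its class. Locus_15090_Transcript_2_2 was at 1.19, 2.13 and 3.01 CPM at Valcea, 0.574, 0.382 and 0 at Babeni site 1, and 0.117, 0.125 and 0.578 at Babeni site 2. Its Babeni values were within 4 reads, and its log2 differences of -1.68 ± 0.42 and -1.74 ± 0.42 depend on the pseudocount.

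Influx carriers of the AUX1/LAX type, which bring auxin into cells, had lower means at both Babeni sites in all 5 transcripts, and 4 of 5 were lower at Babeni site 1 than at site 2. Locus_1963_Transcript_9_14, described as auxin transporter-like protein 4, was at 9.93, 4.73 and 5.46 CPM at Valcea, 2.30, 2.10 and 3.01 at Babeni site 1, and 3.74, 4.76 and 5.34 at Babeni site 2. Locus_3576_Transcript_4_5, described as auxin transporter-like protein 1, was at 4.77, 7.57 and 4.33 CPM at Valcea, 2.68, 1.53 and 3.01 at Babeni site 1, and 3.63, 3.25 and 3.18 at Babeni site 2. Locus_3576_Transcript_2_5, with the same description, was at 4.77, 5.44 and 4.89 CPM at Valcea, 2.11, 2.67 and 2.36 at Babeni site 1, and 3.98, 4.01 and 3.46 at Babeni site 2. The exception to the order of the Babeni sites was Locus_1963_Transcript_10_14, at 5.56, 4.02 and 3.39 CPM at Valcea, 2.30, 1.91 and 2.36 at Babeni site 1, and 2.22, 1.25 and 0.722 at Babeni site 2, with log2 differences from Valcea of -0.82 ± 0.31 and -1.40 ± 0.31. All 5 lay below Valcea without overlap at Babeni site 1, by -1.35 to -0.82 on the log2 scale (15.6% of all transcripts). At Babeni site 2, 4 of 5 did so (17.5%). Between the Babeni sites, 4 of 5 were higher at site 2 without overlap (12.1% of all transcripts), Locus_1963_Transcript_9_14 by 0.78 ± 0.27 and Locus_3576_Transcript_2_5 by 0.59 ± 0.22. All 3 transcripts of Locus_3576 with values, of 5 assembled, were included. Their summed mean was 15.4 CPM at Valcea, against 6.38 at Babeni site 1 and 9.59 at site 2. In Locus_1963 the included transcripts made up 44.2% of the locus at Valcea and 31.9% at Babeni site 2. The sum of Locus_1963 had means of 24.8 CPM at Valcea, 13.6 at Babeni site 1 and 19.05 at site 2. That sum lay below Valcea without overlap at site 1, by -0.85 on the log2 scale. At site 2 it overlapped with Valcea, at -0.36, and it was called at neither site.

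Among the PIN, AUX1/LAX and 5NG4 classes, the largest difference was in Locus_5667_Transcript_3_4, described as auxin-induced protein 5NG4. The name is that of a nodulin-like membrane protein family named from pine, and the description does not state that it carries auxin. Locus_5667_Transcript_3_4 was at 9.53, 9.70 and 6.77 CPM at Valcea, 0.957, 2.29 and 2.36 at Babeni site 1, and 3.16, 1.75 and 2.60 at Babeni site 2. Both Babeni sites lay far below Valcea and overlapped with each other, with log2 differences of -1.999 ± 0.30 and -1.62 ± 0.30. Over the 13 transcripts of the PIN, AUX1/LAX and 5NG4 classes, 12 lay below Valcea without overlap at Babeni site 1 and 10 did at Babeni site 2. Of all transcripts, 15.6% and 17.5% did so, as did 1816 and 2096 of the other 4600 described transcripts in the authors' tables. The remaining 1 of the 13 at Babeni site 1, of the PIN class, had higher means than Valcea at both Babeni sites and overlapped with Valcea at both. The summed means of the 13 were 114, 50.9 and 57.5 CPM.

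**Figure D2:**
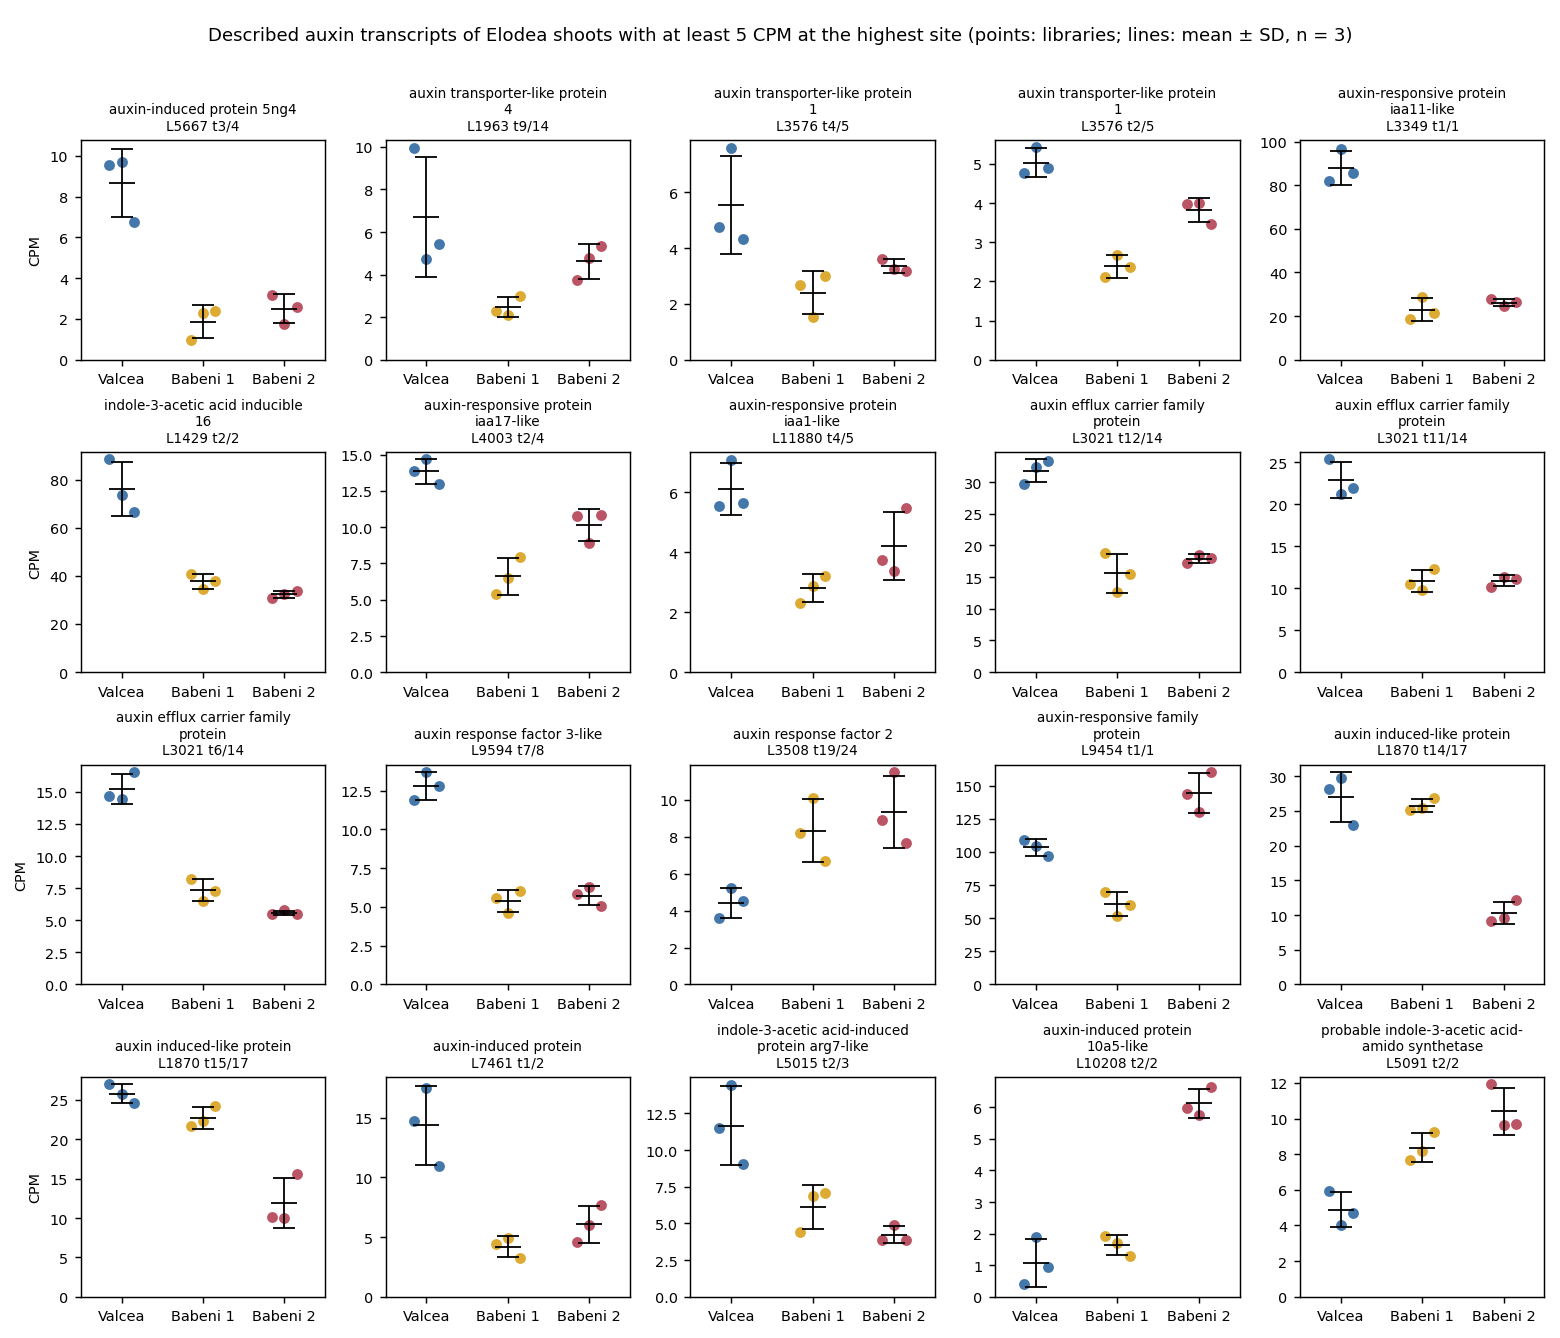
Each panel is 1 of the 20 transcripts described as auxin genes with a mean of at least 5 CPM at the highest site, points being libraries in CPM and bars the mean ± SD (n = 3). In the panels of carriers and Aux/IAA proteins, the Valcea mean is highest, while ARF2, the 10A5-like protein and the amido synthetase are highest at Babeni site 2.

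Transporters of the ABCB class, a family in which some Arabidopsis members export auxin and others carry other substrates, showed the opposite direction in most transcripts. Of 12, 6 lay above Valcea at site 1 and 9 at site 2 of Babeni (15.4% and 18.4% of all transcripts), while 3 lay below at both (10.5%). Locus_16658_Transcript_17_19, described as ATP-binding cassette subfamily B4 isoform 2, was at 3.18, 4.73 and 6.96 CPM at Valcea, 7.28, 6.11 and 7.09 at Babeni site 1, and 15.2, 12.5 and 15.6 at Babeni site 2. Locus_6075_Transcript_6_7, an ABCB2-like transcript, was at 4.37, 6.15 and 5.83 CPM at Valcea, 13.8, 10.7 and 9.46 at Babeni site 1, and 12.5, 10.1 and 14.3 at Babeni site 2. Locus_17513_Transcript_1_1, ABCB1-like, was at 6.35, 4.26 and 6.40 CPM at Valcea, 11.3, 8.01 and 7.95 at Babeni site 1, and 14.04, 11.3 and 9.10 at Babeni site 2. The B4 transcript was set apart at Babeni site 2 only, by 1.51 ± 0.23, whereas the ABCB2-like and ABCB1-like ones were above Valcea at both sites.

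Locus_8994, described as ABCB20-like, had a pair of included transcripts of equal length. Locus_8994_Transcript_2_6 was at 2.38, 2.13 and 3.76 CPM at Valcea, 5.17, 5.53 and 3.87 at Babeni site 1, and 8.66, 6.51 and 8.23 at Babeni site 2. Locus_8994_Transcript_3_6 was at 1.99, 1.42 and 1.88 CPM at Valcea, 3.06, 4.39 and 3.65 at Babeni site 1, and 7.25, 5.63 and 4.04 at Babeni site 2. Both were highest at Babeni site 2, by 1.37 ± 0.24 and 1.42 ± 0.26 against Valcea. The remaining ABCB15-like, ABCB2-like and B4 transcripts above Valcea had site means under 5 CPM.

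The 3 ABCB transcripts that were lower were 426 to 825 nt long. Locus_8249_Transcript_3_5, described only as a multidrug resistance protein, 825 nt long, was at 7.55, 9.70 and 11.5 CPM at Valcea, 1.15, 3.82 and 3.01 at Babeni site 1, and 1.99, 2.503 and 2.31 at Babeni site 2. Locus_4935_Transcript_1_1, 525 nt long, was at 12.3, 13.3 and 22.2 CPM at Valcea, 6.70, 9.92 and 5.37 at Babeni site 1, and 9.36, 8.51 and 6.50 at Babeni site 2. Locus_16658_Transcript_15_19, a 426-nt transcript of the B4 locus, was at 2.38, 2.37 and 3.95 CPM at Valcea, 0.574, 1.72 and 0.215 at Babeni site 1, and 1.05, 0.501 and 1.30 at Babeni site 2. They differed from Valcea by -1.77 ± 0.31, -1.06 ± 0.25 and -1.48 ± 0.41 at Babeni site 1, and none overlapped with Valcea at either site. In the B4 locus, the 426-nt transcript was thus lower while the 3617-nt Locus_16658_Transcript_17_19 was higher, and the sum of the locus overlapped with Valcea at Babeni site 1 and lay above it at site 2, by 0.47 on the log2 scale.

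Among proteins that act on carrier position or activity, GNOM had the most included transcripts, all of 1 locus. GNOM is a guanine-nucleotide exchange factor for ARF GTPases that acts in membrane trafficking in Arabidopsis, and 4 transcripts of its locus were included. Locus_6900_Transcript_13_14 was at 10.3, 12.3 and 11.7 CPM at Valcea, 22.6, 24.8 and 22.4 at Babeni site 1, and 26.6, 20.3 and 17.8 at Babeni site 2. Locus_6900_Transcript_11_14 was at 4.77, 4.26 and 6.58 CPM at Valcea, 11.5, 9.92 and 12.9 at Babeni site 1, and 10.1, 10.8 and 10.4 at Babeni site 2. Locus_6900_Transcript_7_14 was at 2.38, 2.37 and 2.07 CPM at Valcea, 3.64, 5.53 and 6.02 at Babeni site 1, and 4.21, 3.88 and 2.60 at Babeni site 2. Locus_6900_Transcript_6_14, which had the largest difference of the group, was at 1.19, 1.18 and 0.941 CPM at Valcea, 3.64, 7.06 and 2.58 at Babeni site 1, and 3.51, 2.25 and 2.45 at Babeni site 2. All 4 lay above Valcea at both Babeni sites without overlap. In the order given, the log2 differences at Babeni site 1 were 0.995 ± 0.17, 1.08 ± 0.20, 0.98 ± 0.26 and 1.52 ± 0.32. These 4 made up 39.8% of the locus at Valcea. The locus sum lay above Valcea without overlap, by 0.81 at Babeni site 1 and 0.55 at site 2, but was called at neither. Locus_9285_Transcript_1_1, a small ARF-related GTPase of vesicle traffic (here ARF stands for ADP-ribosylation factor), was at 4.77, 10.9 and 13.0 CPM at Valcea, 2.68, 4.39 and 3.44 at Babeni site 1, and 6.67, 11.1 and 9.82 at Babeni site 2. It was low at Babeni site 1 alone. Transcripts of the phosphatase PP2A, an actin and a Rac-like GTPase had site means under 3 CPM and were lower at Babeni site 2, by -1.05 to -0.92 for those tested.

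Auxin perception divided between receptor loci. TIR1 is the F-box receptor subunit that binds auxin. Its most abundant included transcript was Locus_15440_Transcript_1_1, the single transcript of its locus. It was at 56.4, 54.2 and 54.6 CPM at Valcea, 23.0, 20.99 and 16.1 at Babeni site 1, and 22.6, 20.2 and 21.7 at Babeni site 2. Every Babeni library lay below every Valcea library, with log2 differences of -1.45 ± 0.15 and -1.34 ± 0.15, and the Babeni sites overlapped. Per length of transcript its mean was 56.3 CPM per kb at Valcea, against 20.5 at Babeni site 1 and 21.9 at site 2.

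Receptor transcripts of the other loci were higher. In Locus_2293, described as TIR1-like and, for 1 transcript, as AFB2-like, 4 included transcripts had means under 1 CPM at Valcea. Locus_2293_Transcript_3_11 was at 0.397, 0.710 and 1.88 CPM at Valcea, 2.11, 2.67 and 1.72 at Babeni site 1, and 3.98, 4.26 and 4.33 at Babeni site 2. Locus_2293_Transcript_4_11 was at 1.19, 0.710 and 0.941 CPM at Valcea, 1.34, 1.14 and 0.860 at Babeni site 1, and 2.81, 2.63 and 4.19 at Babeni site 2. All 4 lay above Valcea at Babeni site 2, by 1.77 ± 0.34 and 1.35 ± 0.31 for these, and overlapped with it at Babeni site 1. The AFB2-like Locus_2293_Transcript_2_11, which had the largest difference at Babeni site 1 of its class, was at 0, 0 and 0.941 CPM at Valcea, 2.11, 2.48 and 0.645 at Babeni site 1, and 1.05, 2.88 and 1.30 at Babeni site 2. It was listed at 0 in 2 Valcea libraries, so its log2 difference of 1.54 ± 0.48 depends on the pseudocount. These 4 made up 1.68% of the locus at Valcea. Its main transcript, Locus_2293_Transcript_10_11, was not listed by the authors and was at 122, 159 and 148 CPM at Valcea, 228, 191 and 192 at Babeni site 1, and 212, 182 and 204 at Babeni site 2. That transcript was also above Valcea at both sites without overlap, but by 0.51 and 0.48 only. The sum of Locus_2293 had means of 167 CPM at Valcea, 242 at Babeni site 1 and 246 at site 2. These were above the levels of Locus_15440 at every site. In Locus_8327, TIR1-like, Locus_8327_Transcript_2_5 was at 0.794, 0.947 and 1.32 CPM at Valcea, 1.34, 3.63 and 1.505 at Babeni site 1, and 2.46, 2.75 and 2.45 at Babeni site 2, and the locus sum was higher at Babeni site 2 by 1.05.

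**Figure D3:**
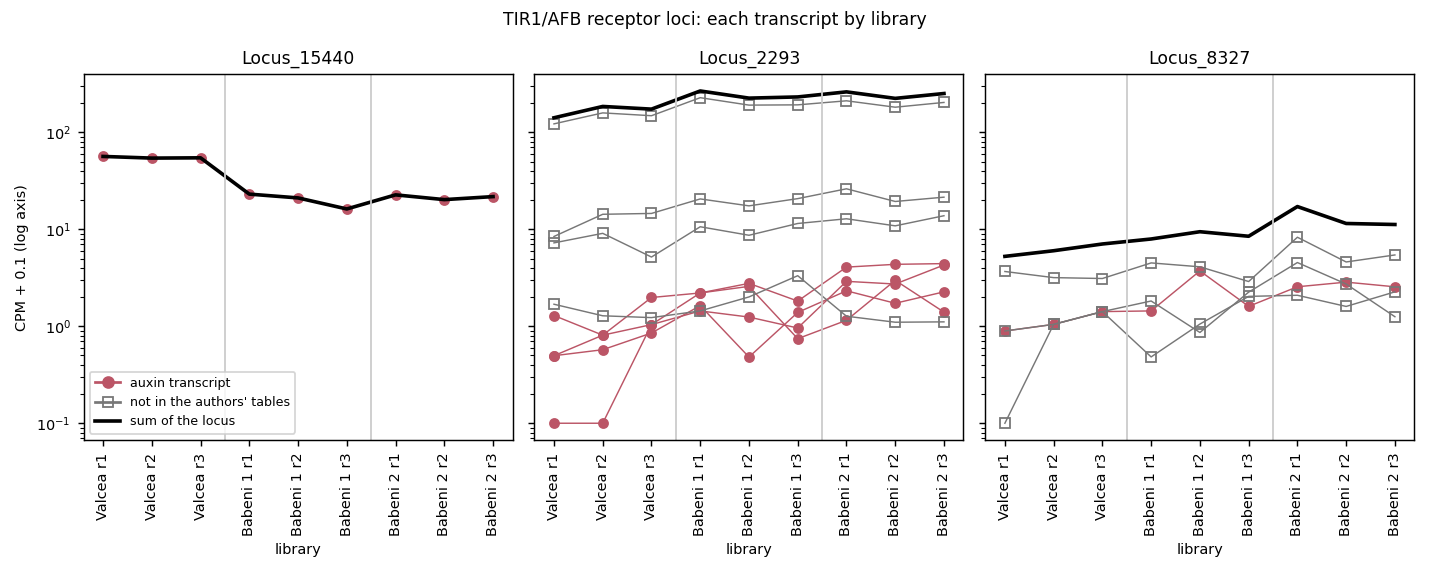
Each line is a transcript of a TIR1/AFB-like locus in CPM + 0.1 on a log axis over the 9 libraries, red where included, grey where not listed by the authors, and black for the locus sum. Locus_15440 is lower at both Babeni sites, Locus_2293 and Locus_8327 are higher, and the included transcripts of Locus_2293 lie far below its main one.

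Subunits and regulators of the receptor's ubiquitin ligase followed no single direction. Cullin is the scaffold of that ligase, and CAND1 exchanges its F-box subunits. Locus_2436_Transcript_5_30, cullin-like and only 165 nt long, was at 1.19, 1.66 and 3.57 CPM at Valcea, 5.74, 5.15 and 4.08 at Babeni site 1, and 6.78, 5.51 and 4.62 at Babeni site 2. Locus_1092_Transcript_8_9, CAND1-like, was at 0.794, 3.08 and 4.70 CPM at Valcea, 4.79, 6.68 and 4.94 at Babeni site 1, and 6.32, 8.39 and 5.20 at Babeni site 2. Both lay above Valcea at both sites. The cullin-like transcript was only 2.17% of its locus at Valcea. The sum of that locus overlapped with Valcea at both Babeni sites and was not called. SKP2A is a cell-cycle F-box protein that binds auxin in Arabidopsis. Its transcript Locus_5244_Transcript_3_4 was at 8.74, 8.99 and 4.70 CPM at Valcea, 3.45, 3.43 and 2.58 at Babeni site 1, and 2.81, 3.38 and 3.32 at Babeni site 2. It was lower at both Babeni sites by -1.08 ± 0.26 and -1.07 ± 0.26, and the other SKP2A transcripts, Locus_5244_Transcript_2_4 and Locus_10149_Transcript_2_4, lay below Valcea as well.

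All 5 Aux/IAA transcripts were lower at both Babeni sites without overlap, as were 10.5% of all transcripts. Of the other 4600 described transcripts in the authors' tables, 1583 were lower in this way. Aux/IAA transcripts encode the repressors degraded on auxin perception and are themselves auxin-induced in Arabidopsis. Locus_3349_Transcript_1_1, IAA11-like, was at 81.8, 96.8 and 85.6 CPM at Valcea, 18.6, 28.8 and 21.5 at Babeni site 1, and 27.6, 24.7 and 26.3 at Babeni site 2. Locus_1429_Transcript_2_2, described as indole-3-acetic acid inducible 16, was at 88.6, 73.8 and 66.6 CPM at Valcea, 40.8, 34.7 and 37.8 at Babeni site 1, and 30.8, 32.7 and 33.8 at Babeni site 2. The IAA11-like transcript differed by -1.94 ± 0.16 at Babeni site 1 and -1.73 ± 0.16 at Babeni site 2, and inducible 16 by -0.998 ± 0.14 and -1.21 ± 0.14. Both Babeni sites overlapped for IAA11-like, whereas inducible 16 was lower still at Babeni site 2.

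The weaker Aux/IAA transcripts were lowest at Babeni site 1. Locus_4003_Transcript_2_4, IAA17-like, was at 13.9, 14.7 and 13.0 CPM at Valcea, 5.36, 6.49 and 7.95 at Babeni site 1, and 10.8, 8.89 and 10.8 at Babeni site 2. Locus_11880_Transcript_4_5, IAA1-like, was at 5.56, 7.10 and 5.64 CPM at Valcea, 2.30, 2.86 and 3.22 at Babeni site 1, and 3.74, 3.38 and 5.49 at Babeni site 2. With the other IAA1-like transcript, Locus_12896_Transcript_2_2, they lay higher at Babeni site 2 than at Babeni site 1 without overlap, by 0.60 ± 0.19, 0.50 ± 0.24 and 0.56 ± 0.29. Summed over the class, the means were 187 CPM at Valcea, against 71.1 at Babeni site 1 and 74.6 at site 2. Per length, inducible 16 was at 192 CPM per kb at Valcea, against 95.2 at Babeni site 1 and 81.6 at site 2, and IAA11-like at 74.2 CPM per kb at Valcea, against 19.3 at Babeni site 1 and 22.1 at site 2.

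Auxin response factors, the transcription factors that Aux/IAA proteins hold back, differed by member. Locus_9594_Transcript_7_8, ARF3-like, from a family member that sets organ polarity in Arabidopsis, was at 11.9, 13.7 and 12.8 CPM at Valcea, 5.55, 4.58 and 6.02 at Babeni site 1, and 5.85, 6.26 and 5.05 at Babeni site 2. It was lower at both sites by -1.18 ± 0.19 and -1.10 ± 0.19, as were Locus_9594_Transcript_5_8 of the same locus and the ARF18-like Locus_3737_Transcript_4_5. ARF2 is a repressor-type factor in Arabidopsis. Its transcript Locus_3508_Transcript_19_24 was at 3.57, 5.21 and 4.52 CPM at Valcea, 8.23, 10.1 and 6.66 at Babeni site 1, and 8.89, 11.5 and 7.65 at Babeni site 2. Locus_15818_Transcript_2_2, also ARF2 and the largest positive difference of the class, was at 1.59, 2.13 and 1.51 CPM at Valcea, 5.36, 3.63 and 4.51 at Babeni site 1, and 4.21, 4.76 and 3.90 at Babeni site 2. Both ARF2 transcripts were above Valcea at both Babeni sites without overlap, by 0.84 ± 0.22 and 1.15 ± 0.25 at Babeni site 1. They made up 11.5% and 35.9% of their loci at Valcea. The sum of Locus_3508 differed by 0.47 at Babeni site 1 and 0.69 at site 2, and that of Locus_15818 by 0.86 and 0.84. Neither sum was called at either site. The summed mean of the 5 factors was 24.99 CPM at Valcea, against 20.9 at Babeni site 1 and 20.99 at site 2.

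Of the 8 auxin-induced proteins, 2 lay higher and 3 lower at Babeni site 2 than at site 1 without overlap (12.1% and 11.8% of all transcripts). Locus_9454_Transcript_1_1, described as an auxin-responsive family protein, was at 109, 105 and 96.7 CPM at Valcea, 70.1, 51.9 and 60.2 at Babeni site 1, and 144, 130.1 and 160.4 at Babeni site 2. It was lowest at Babeni site 1 and highest at Babeni site 2, with all 3 sites apart and a log2 difference of 1.25 ± 0.13 between the Babeni sites. SAUR proteins are small, early auxin-induced proteins. Locus_10208_Transcript_2_2, described as 10A5-like after a soybean SAUR, was at 0.397, 1.89 and 0.941 CPM at Valcea, 1.91, 1.72 and 1.29 at Babeni site 1, and 5.97, 5.76 and 6.64 at Babeni site 2. It was higher at Babeni site 2 alone, by 2.18 ± 0.33 against Valcea, the largest log2 difference among the 87 in any contrast. The other transcript of this locus, Locus_10208_Transcript_1_2, which the authors listed without a description, was at 8.34, 5.92 and 3.95 CPM at Valcea, 5.55, 6.30 and 5.37 at Babeni site 1, and 17.5, 17.9 and 20.8 at Babeni site 2.

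Other auxin-induced transcripts were lower. Locus_5015_Transcript_2_3, described as ARG7-like after a mung bean SAUR, was at 11.5, 14.4 and 9.03 CPM at Valcea, 4.404, 6.87 and 7.09 at Babeni site 1, and 3.86, 4.88 and 3.90 at Babeni site 2. Locus_7461_Transcript_1_2, described as auxin-induced protein, was at 14.7, 17.5 and 10.9 CPM at Valcea, 4.404, 4.96 and 3.22 at Babeni site 1, and 4.56, 6.01 and 7.65 at Babeni site 2. Both were lower at each Babeni site, by -0.88 ± 0.23 and -1.66 ± 0.24 at site 1 and -1.35 ± 0.23 and -1.18 ± 0.24 at site 2. The weaker Locus_7461_Transcript_2_2 of that locus was lower too.

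Locus_1870 was lower mainly at Babeni site 2. Locus_1870_Transcript_14_17, described as auxin induced-like, was at 28.2, 29.8 and 23.0 CPM at Valcea, 25.1, 25.4 and 26.9 at Babeni site 1, and 9.12, 9.64 and 12.1 at Babeni site 2. Locus_1870_Transcript_15_17, with the same description, was at 27.0, 25.8 and 24.6 CPM at Valcea, 21.6, 22.3 and 24.3 at Babeni site 1, and 10.2, 10.0 and 15.6 at Babeni site 2. At Babeni site 1 the first overlapped with Valcea and the second lay just below it, by -0.18 ± 0.17, while Babeni site 2 was lower by -1.35 ± 0.16 and -1.11 ± 0.17 against Valcea. Locus_1870_Transcript_8_17, described as AIR12-like after an Arabidopsis protein induced by auxin in root cultures, was at 0.794, 2.37 and 2.82 CPM at Valcea, 1.91, 4.58 and 3.01 at Babeni site 1, and 1.29, 1.502 and 1.01 at Babeni site 2. It overlapped with Valcea in both contrasts, was lower at Babeni site 2 than at site 1 without overlap, and had a mean above Valcea at Babeni site 1.

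Auxin conjugation and the path to its precursor were each represented by 1 transcript, and both were higher. Locus_5091_Transcript_2_2, a probable indole-3-acetic acid-amido synthetase, the GH3-type enzyme that joins auxin to amino acids, was at 5.96, 4.02 and 4.70 CPM at Valcea, 7.66, 8.21 and 9.24 at Babeni site 1, and 11.9, 9.64 and 9.67 at Babeni site 2. Locus_3062_Transcript_8_16, anthranilate phosphoribosyltransferase of the tryptophan path, was at 2.78, 2.37 and 2.07 CPM at Valcea, 2.87, 3.82 and 3.65 at Babeni site 1, and 6.32, 6.01 and 4.91 at Babeni site 2. The Babeni sites lay above Valcea and site 2 above site 1 for both, with differences from Valcea of 0.73 ± 0.20 and 1.03 ± 0.20 for the synthetase and 0.44 ± 0.23 and 1.10 ± 0.23 for the transferase. The anthranilate transcript was 3.43% of its locus at Valcea, and the locus sum was not called different at either site.

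The 21 other transcripts carried auxin terms beside another function. Of these, 12 were lower at both Babeni sites without overlap (10.5% of all transcripts, and 1583 of the other 4600 described ones). Arginine decarboxylase, an enzyme of polyamine synthesis, had 4. Locus_572_Transcript_9_11 was at 45.3, 45.7 and 30.3 CPM at Valcea, 19.5, 19.5 and 19.6 at Babeni site 1, and 13.5, 11.5 and 14.7 at Babeni site 2. Locus_572_Transcript_8_11 was at 28.6, 29.1 and 25.6 CPM at Valcea, 16.7, 13.9 and 12.3 at Babeni site 1, and 9.36, 7.01 and 8.66 at Babeni site 2. Locus_572_Transcript_7_11 was at 17.9, 17.0 and 11.1 CPM at Valcea, 8.81, 6.11 and 5.37 at Babeni site 1, and 7.25, 4.26 and 4.76 at Babeni site 2. In these 3 the Babeni site 2 means were the lowest, as in the fourth, where the means at Babeni sites 1 and 2 were close (4.62 and 4.53 CPM). The fourth, Locus_572_Transcript_6_11, was at 17.1, 16.8 and 10.3 CPM at Valcea, 3.83, 4.01 and 6.02 at Babeni site 1, and 5.03, 3.50 and 5.05 at Babeni site 2. All 4 were lower at both sites without overlap, by -1.68 ± 0.17 to -1.42 ± 0.25 at Babeni site 2, and the log2 difference of the locus sum there was -1.04.

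Kinases with auxin terms were also lower. Locus_1704_Transcript_1_1, VH1-interacting kinase, was at 39.7, 45.2 and 42.7 CPM at Valcea, 23.0, 26.9 and 25.6 at Babeni site 1, and 19.7, 23.0 and 21.2 at Babeni site 2. Locus_5693_Transcript_2_3, a CIPK6-like kinase of calcium signalling, was at 10.3, 8.28 and 9.22 CPM at Valcea, 3.26, 4.77 and 4.51 at Babeni site 1, and 6.20, 4.13 and 4.04 at Babeni site 2. Locus_5693_Transcript_1_3 of the same locus was at 11.9, 7.34 and 7.34 CPM at Valcea, 3.64, 4.20 and 1.93 at Babeni site 1, and 2.34, 3.76 and 3.90 at Babeni site 2. For each of these the highest Babeni library was under the lowest Valcea library. Locus_2003_Transcript_3_4, described as a SplA-like dual specificity kinase, was at 4.77, 5.44 and 4.33 CPM at Valcea, 1.15, 1.91 and 2.79 at Babeni site 1, and 2.46, 1.88 and 1.73 at Babeni site 2. It followed the same order. The 4 log2 differences at Babeni site 1 were -0.75 ± 0.14, -1.07 ± 0.23, -1.34 ± 0.29 and -1.18 ± 0.29.

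Further lower transcripts came from separate functions. Locus_542_Transcript_13_19, described as stem-specific protein TSJT1-like, was at 30.2, 27.0 and 23.5 CPM at Valcea, 11.3, 8.01 and 12.04 at Babeni site 1, and 10.996, 15.8 and 17.5 at Babeni site 2. Locus_3716_Transcript_5_10, chalcone isomerase of flavonoid synthesis, was at 10.7, 8.28 and 4.52 CPM at Valcea, 1.72, 1.53 and 1.72 at Babeni site 1, and 1.99, 0.751 and 2.45 at Babeni site 2. Locus_11370_Transcript_4_5, a MYB-like transcription factor, was at 5.56, 6.15 and 6.02 CPM at Valcea, 3.06, 4.96 and 3.65 at Babeni site 1, and 2.81, 1.88 and 1.30 at Babeni site 2. The chalcone isomerase difference of -1.92 ± 0.35 at Babeni site 2 was the largest negative one of the 87 against Valcea at that site, and its whole locus, at a mean of 105 CPM at Valcea, was at 28.8 and 31.5 CPM at the Babeni sites. The TSJT1-like transcript was 10.99% of its locus, whose sum overlapped between sites.

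Higher transcripts of this group included Locus_8897_Transcript_4_5, described by its similarity to the Arabidopsis MYB-type gene AT5G37260, at 2.38, 3.08 and 3.01 CPM at Valcea, 8.81, 6.49 and 6.02 at Babeni site 1, and 8.19, 12.8 and 10.5 at Babeni site 2. It was above Valcea at both sites by 1.18 ± 0.22 and 1.71 ± 0.22. Xyloglucan endotransglucosylases, enzymes that cut and rejoin cell-wall xyloglucan, were higher at both sites. Locus_5829_Transcript_6_10 had the largest positive difference of the 87 at Babeni site 1, 1.56 ± 0.33, its libraries spanning 0.564 to 1.66 CPM at Valcea but 3.05 to 5.94 at Babeni site 1.

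The 14 kDa proline-rich transcripts, whose terms name a response to auxin, went apart by site. Locus_5358_Transcript_1_2 was at 9.53, 10.2 and 8.09 CPM at Valcea, 22.8, 14.5 and 14.2 at Babeni site 1, and 6.32, 4.38 and 3.32 at Babeni site 2. Locus_5358_Transcript_2_2, the only one of the 87 that the authors listed in all 3 tables, was at 4.37, 3.31 and 3.01 CPM at Valcea, 12.4, 7.63 and 5.16 at Babeni site 1, and 1.75, 2.00 and 1.01 at Babeni site 2. Locus_2882_Transcript_1_1 was at 13.1, 11.4 and 6.40 CPM at Valcea, 21.4, 12.8 and 16.8 at Babeni site 1, and 4.68, 6.76 and 5.78 at Babeni site 2. All 3 had their highest means at Babeni site 1 and their lowest at Babeni site 2, and the 2 transcripts of Locus_5358 showed no overlap in any contrast.

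Directly between the Babeni sites, more of the 87 overlapped than in either contrast with Valcea. Valcea levels do not enter this difference, but the Valcea libraries share in the fit's estimate of the spread. The choice of transcripts bears on the order of overlap, since the authors listed 10 of the 87 in this contrast, against 47 and 67 in those with Valcea. All 56752 tested transcripts had the same order, with 43191 overlapping here, against 39136 and 36395. At site 2, 21 lay above all site 1 libraries and 11 below, with 55 overlapping, against 12.1% and 11.8% of all transcripts. In limma's fit 5 were called higher and 4 lower (1.55% and 1.63% of all). The 5 higher were Locus_9454_Transcript_1_1 (1.25 ± 0.13), Locus_10208_Transcript_2_2 (1.64 ± 0.33), Locus_9285_Transcript_1_1 (1.27 ± 0.31), Locus_2293_Transcript_4_11 (1.19 ± 0.31) and Locus_16658_Transcript_17_19 (1.03 ± 0.23). The 4 lower were Locus_1870_Transcript_14_17 (-1.29 ± 0.16) and the proline-rich Locus_5358_Transcript_1_2 (-1.78 ± 0.23), Locus_5358_Transcript_2_2 (-2.04 ± 0.31) and Locus_2882_Transcript_1_1 (-1.47 ± 0.25). Leaving out Babeni site 1 replicate 3 or Babeni site 2 replicate 3 gave 2 called higher (543 and 627 of all transcripts, against 879 with every library). Leaving out replicate 1 or replicate 2 of either Babeni site gave 3 (531 to 929 of all).

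Transcripts of a locus share sequence, so reads may be split among them in ways that the files do not show. Of the 87, 79 came from loci with at least 2 assembled transcripts, the median locus having 7. Their lengths ran from 165 to 4652 nt with a median of 1419 nt, beside 1447 nt for the other described transcripts. The 54 loci held another 134 transcripts with values, 18 of them listed by the authors and 116 not. Of those 116, 9 lay below and 16 above Valcea at Babeni site 1 (15.6% and 15.4% of all transcripts). At Babeni site 2, 16 lay below and 30 above (17.5% and 18.4%). Not being listed is itself a result of the authors' thresholds, so these counts complete the picture of the loci and carry no test.

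Summed over each locus, fewer loci were called. At Babeni site 1, 1 of the 54 was called higher and 14 lower (4.23% and 5.02% of 36309 locus sums), and at Babeni site 2, 7 were called higher and 16 lower (6.45% and 6.06%). Between the Babeni sites, 3 were called higher at site 2 and 2 lower (1.82% and 1.61%). The efflux carrier Locus_3021 showed the gap between transcript and locus. Its most abundant transcript, Locus_3021_Transcript_13_14, was not listed and was at 39.3, 65.5 and 46.3 CPM at Valcea, 53.8, 40.3 and 37.4 at Babeni site 1, and 64.1, 45.1 and 69.3 at Babeni site 2. It overlapped between all sites, while the share of the 4 included transcripts in the locus was 43.5% at Valcea, against 31.3% at Babeni site 1 and 27.1% at site 2. The locus sum was lower without overlap at both sites, at means of 169, 112 and 134 CPM, a log2 difference of -0.59 and -0.34 that was not called.

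**Figure D4:**
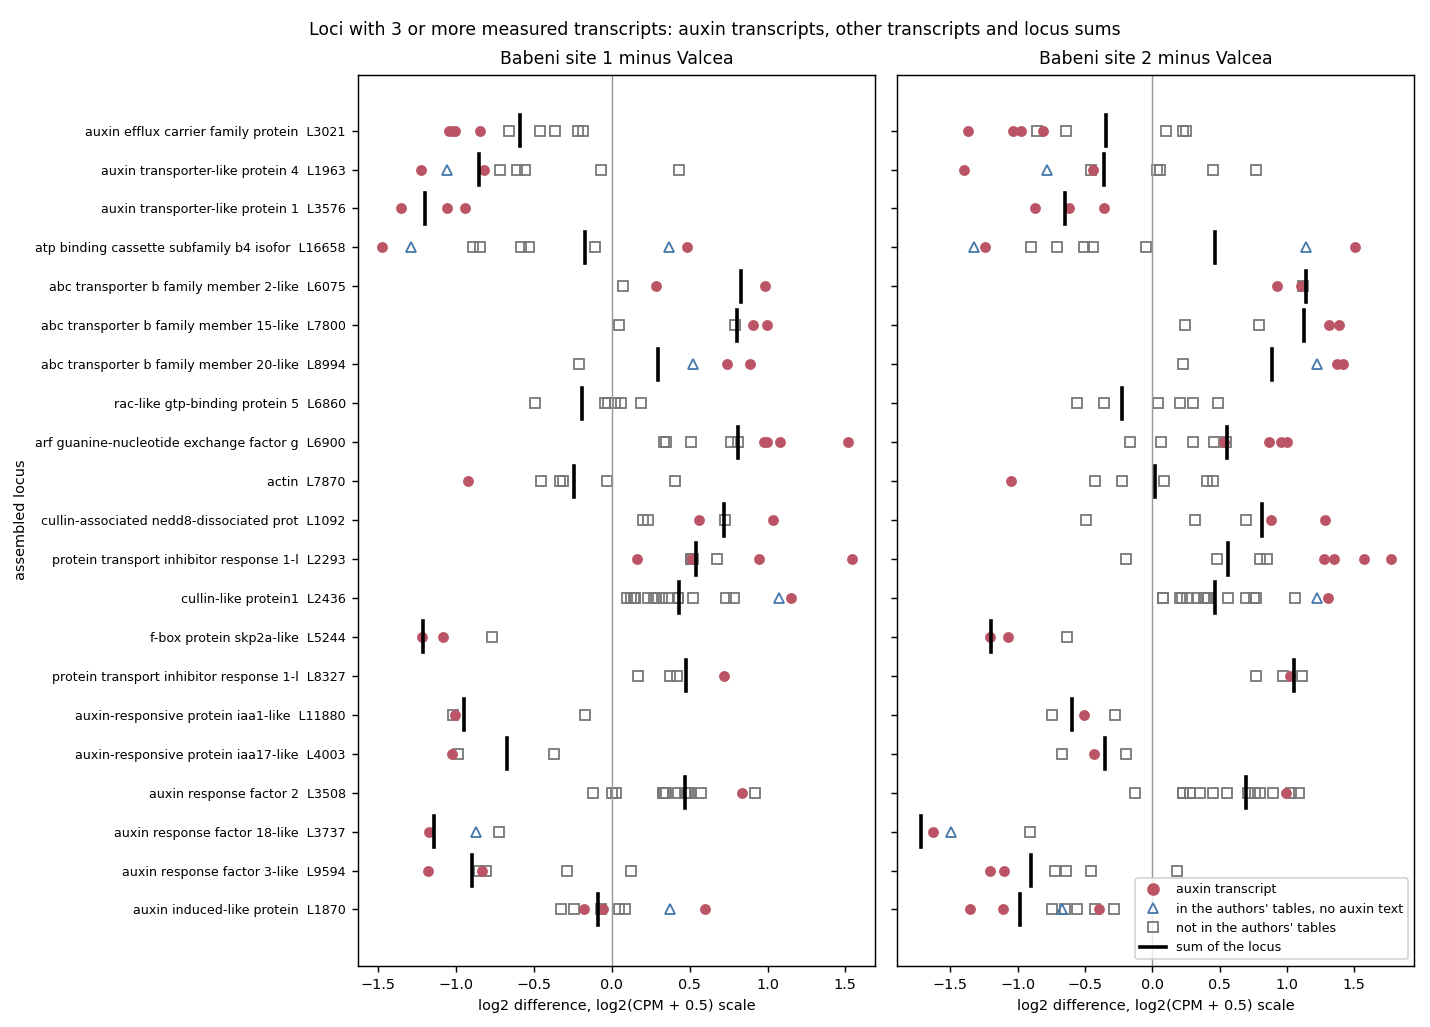
For the loci shown, each with at least 3 measured transcripts, the horizontal axis gives the log2 difference of each transcript from Valcea on the log2(CPM + 0.5) scale at Babeni site 1 (left) and site 2 (right), with red for included transcripts, blue and grey for others, and a black bar for the locus sum. Included transcripts often lie farther from 0 than the locus sum, as in Locus_3021, Locus_2293 and Locus_16658. This follows in part from the choice, since included transcripts passed the authors' thresholds and the sums also hold unlisted transcripts.

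Other genes of auxin biology, found in the authors' tables by patterns on the description and holding no auxin word, were few, and they too were chosen by the authors' thresholds. The pattern for synthesis matched 1 transcript. Locus_14878_Transcript_1_1, described as probable flavin-containing monooxygenase 1, was at 10.7, 4.73 and 5.27 CPM at Valcea, 20.3, 17.7 and 18.1 at Babeni site 1, and 18.4, 24.8 and 20.5 at Babeni site 2. It was called higher at both sites. The YUCCA enzymes of auxin synthesis are flavin-containing monooxygenases, but the Arabidopsis gene of this name acts in immunity, so the match does not place it in auxin synthesis. Of 2 for transport, Locus_13859_Transcript_1_1, related to the Arabidopsis vacuolar auxin transporter WAT1, was at 18.7, 22.5 and 10.9 CPM at Valcea, 42.3, 31.9 and 33.3 at Babeni site 1, and 39.4, 40.8 and 33.9 at Babeni site 2. It was called higher at both sites as well, and the other WAT1-related transcript did not pass the filter. Of 3 for perception, none had a site mean of 5 CPM, and a Topless-related corepressor was called higher at Babeni site 1.

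Of 8 transcripts matched by the patterns for auxin-regulated growth, 1 was called higher and 3 lower at Babeni site 1. At Babeni site 2, 3 were called higher and 3 lower. The patterns name gene families, so a match does not show that a transcript is regulated by auxin. Locus_3435_Transcript_1_1, LOB domain-containing protein 41-like, of a family of transcription factors of lateral organs, was at 7.55, 8.76 and 5.46 CPM at Valcea, 17.6, 20.6 and 21.5 at Babeni site 1, and 56.5, 62.0 and 69.4 at Babeni site 2. Locus_6290_Transcript_12_15, described as expansin-B3-like, a wall-loosening protein, was at 37.7, 32.7 and 23.7 CPM at Valcea, 5.74, 6.11 and 3.87 at Babeni site 1, and 4.09, 3.25 and 3.75 at Babeni site 2. Locus_8837_Transcript_1_2, another LOB41-like transcript, was at 0, 0.710 and 0.564 CPM at Valcea, 1.72, 1.34 and 0.645 at Babeni site 1, and 6.20, 6.38 and 6.79 at Babeni site 2. The LOB41-like transcripts were highest at Babeni site 2, by 3.04 and 3.01 against Valcea, and the expansin was lower by -2.47 and -2.90.

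A sign of another organism moved in the same direction as the lower auxin transcripts. Of markers for algae and diatoms on the plant, 1 transcript was found, Locus_12779_Transcript_1_1, described as a fucoxanthin chlorophyll a/c binding protein, a light-harvesting protein of diatoms and brown algae. It was at 21.8, 19.6 and 21.1 CPM at Valcea, 9.00, 8.59 and 11.2 at Babeni site 1, and 6.90, 8.26 and 8.66 at Babeni site 2, lower at both Babeni sites without overlap. A single transcript, Locus_2891_Transcript_6_10, described as root hair defective 3-like, matched the pattern for root, and whether it marks root cells was not tested. It was at 1.19 to 1.66 CPM at Valcea and at 2.79 to 3.64 and 3.98 to 4.48 CPM at the Babeni sites. The part of other organisms or tissues, and of the photosystem transcripts given above, in the auxin differences was not tested.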

How the data were processed

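RNA of Elodea shoots was sequenced with a stranded mRNA kit from 300.0 ng of total RNA, per the labels' protocols. Per the submitters' processing notes, HTSeq 0.5.3p9, edgeR 3.4.2, TopHat2 2.0.11 and BWA 0.7.10 served the series. The transcript assembly and the source of its annotation are not given in the sources used here. What the authors deposited as levels is a signal table, named CPM per the file headers, scaled by a factor per library, from which whole reads were recovered for 100% of values (within 0.01 of a whole number). The plan assumed plain CPM. Its test was kept. The authors' deposited tables hold log2 fold changes with a p-value and a false discovery rate.

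Contrasts were fitted in R 4.3.3 by limma 3.58.1 on log2(CPM + 0.5), the prior variance following a trend, for transcripts with at least 1 CPM in 3 of 9 libraries, all 9 sharing 1 estimate of the spread. A call needs a Benjamini-Hochberg adjusted p under 0.05 over all transcripts and a 2-fold difference. Differences are on the log2(CPM + 0.5) scale, which understates those of low transcripts, with limma's SE. The fit was tested on simulated data. The transcripts, classes, lists and tests were chosen with earlier results of these data known. Classes were set by patterns on the description, with inducible 16 placed among Aux/IAA and GTPase-related ARF names kept out of the response factors by hand. Transcripts with a mean of at least 5 CPM at the highest site are given library by library, the rest by range and counts, except loci with opposite directions and the largest difference of a class. The single values of 2 transcripts of the PIN class are not reported here. The alternatives were other pseudocounts, filters, centring, no trend, a replicate block, leaving out each library, sums per locus, and, on the recovered reads, DESeq2 1.42.0 or edgeR 4.0.16.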

Additional observations from a re-analysis of the deposited data

How the results depend on the processing

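Of 102 calls of an auxin transcript in a contrast, 39 held in every alternative fit that included the transcript and 55 in every one but that with a pseudocount of 2, and no difference of a called transcript changed sign in those fits. The filter at 5 CPM includes only part of the transcripts, and sums per locus, which replace transcripts, are not counted there. With a pseudocount of 2, which shrinks low transcripts, 0 auxin transcripts were called higher and 11 lower at Babeni site 1 against Valcea (2069 of all transcripts called), 6 and 17 at Babeni site 2 against Valcea (3313), and 3 and 4 between the Babeni sites (1054). With 0.1 the counts were 14 and 34 (5198 of all), 26 and 33 (7056), and 5 and 4 (1605). A filter of at least 5 CPM, which left 43 of the 87 and 20437 transcripts in all, gave 4 higher and 20 lower (2436 of all), 8 and 18 (3308), and 4 and 4 (1104), in the same order of contrasts. Without a trend in the prior variance, 3 were called higher and 4 lower between the Babeni sites (1376). DESeq2 called 3326 of all transcripts at Babeni site 1, 8 auxin transcripts higher and 26 lower among them, and edgeR 4954, with 11 and 34. Sums per locus, with 54 auxin loci, gave 1 higher and 14 lower (3359 of all), 7 and 16 (4543), and 3 and 2 (1246).

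With each library left out in turn, 7 to 13 were called higher and 24 to 31 lower at Babeni site 1 (4080.0 to 6765 of all), 15 to 22 and 25 to 31 at Babeni site 2 (5479 to 8397), and 2 to 5 and 4 to 5 between the Babeni sites (1250.0 to 2116). The replicate numbers of the titles are not stated to pair the libraries, and deviations of same-numbered libraries correlated at -0.16 to 0.06. With the replicate block, 8 and 31 (4855 of all), 21 and 29 (6583), and 4 and 4 (1670) auxin transcripts were called, in the same order. For transcripts near 1 CPM, where 3 reads were worth up to 1.19 CPM at Valcea, depth limits what can be told of a difference.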
